A study of Macaca mulatta with 4 samples.

Results

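Pigmentation and melanosome genes were described in RF/6A, an established line of chorioretinal cells, per its labels, from the rhesus macaque (Macaca mulatta). The 10 genes were chosen by name, with their levels in these libraries known, as PMEL, MITF, TYR, TYRP1, DCT, MLANA, GPNMB, OCA2, GPR143 and RAB27A. Of these, 8 had a row among the 21314 genes of the deposited table. TYRP1 and MLANA matched no row by symbol and were treated as not measured. The series asked whether RF/6A displays endothelial features. It holds 1 group of 4 libraries, all titled as static, from 1 purchased lot of untreated cells grown alike in medium with fetal bovine serum. The labels do not say whether the libraries came from separate cultures, so every SD measures the spread between these libraries, which may be technical. There was no treated or control group and hence no contrast between groups, and no p-value is given.

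Melanosomes are lysosome-related organelles in which melanocytes and the retinal pigment epithelium make and store melanin. In the early organelle the protein PMEL forms amyloid fibrils, on which melanin made by tyrosinase (TYR), TYRP1 and dopachrome tautomerase (DCT) is later laid down. MITF, a transcription factor, switches on most of these genes in pigment cells, and RAB27A, a small GTPase, ties the finished organelle to the actin motor that moves it. In the eye, pigment cells of both kinds lie behind the neural retina, in the choroid and in the epithelium next to it.

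The libraries held between 20366946 and 20550610 estimated counts, and levels are given as CPM, the share of a library's counts rescaled to a common depth, after scaling by the trimmed mean of M-values. CPM were not divided by transcript length, because no lengths were used here, so a difference in level between genes is one of counts and not of molecules. Library 2 stood apart from the others in composition. The biological coefficient of variation over 12167 genes was 44.9% with all 4 libraries and 13.1% without library 2. Its own value, or the value without it, is therefore given for the members and for the other genes that it moves most. No pair of libraries was a copy within sampling noise, with a chi-square per degree of freedom of at least 12.3.

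The matched genes fell into a group with clear counts and a group at or near 0. GPNMB, PMEL and RAB27A reached 1 CPM in every library, MITF reached it in libraries 1, 3 and 4, and TYR, DCT, OCA2 and GPR143 stayed below it in every library. Thus 3 of 8 genes passed that level in all libraries and 4 of 8 without library 2. Among all rows with a symbol the share was 64.2%, and since the genes were chosen with their levels known, nothing is read from that difference. In bulk RNA, fewer cells that express a gene and less RNA per cell cannot be told apart.

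**Figure D1:**
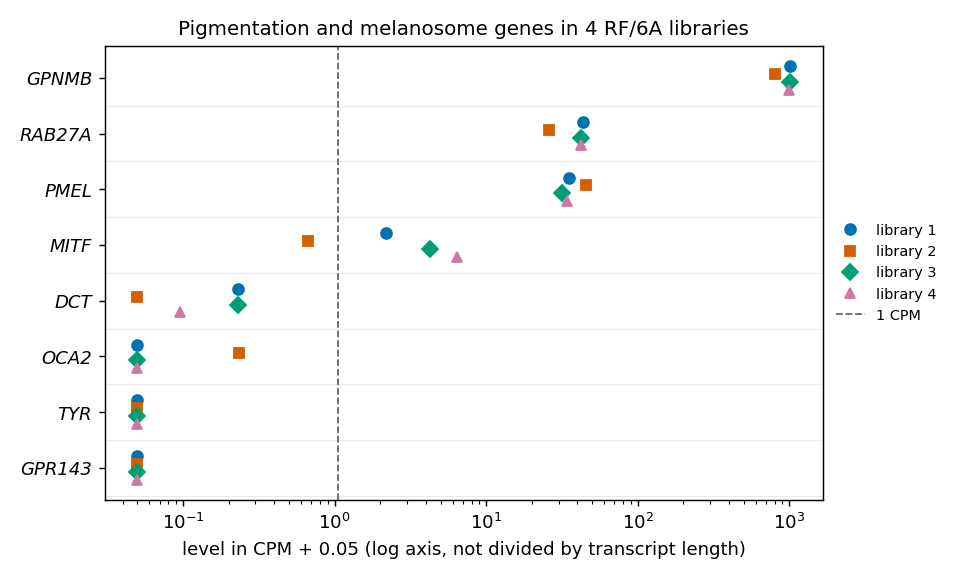
The log axis gives the level, as CPM + 0.05, of each matched gene, with 1 point per RF/6A library and a dashed line at 1 CPM. GPNMB, RAB27A and PMEL lie right of the line in all 4 libraries, MITF crosses it, and DCT, OCA2, TYR and GPR143 lie left of it.

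PMEL (ENSMMUG00000018816), the matrix protein of the early melanosome, had 767, 742, 701 and 748 counts in libraries 1 to 4. These correspond to 34.9, 45.8, 31.5 and 33.8 CPM, a mean of 36.5 ± 6.34 CPM (SD, n = 4). Library 2 was the highest on this scale, 1.37 times the mean of the others. With plain CPM, which divides by the library total alone, the levels were 37.7, 36.3, 34.2 and 36.4, and library 2 lay among the others. The scaling factor was 0.793 for library 2 and between 1.08 and 1.09 for the rest. The log2 ratio of library 2 to the mean of the others, in CPM + 0.5, was 0.45 for PMEL after scaling. The median of all genes that averaged 1 CPM or more was -0.08. With plain CPM the values were 0.01 and -0.50, so PMEL lay above that median on both scales. Scaling multiplies all genes of a library by the same factor, so it could hardly alter that order. On the RefSeq assembly T2T-MMU8v2.0, PMEL overlaps CDK2, a cell cycle kinase gene, and no row of the table carries the CDK2 symbol. The strandedness of the libraries is not given in the sources used here, and whether the PMEL row holds reads from CDK2 was not tested. The other neighbour genes DGKA and RAB5B had rows of their own, at a mean of 17.7 and 47.4 CPM, and both were lowest in library 2, at 9.81 and 8.33 CPM.

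GPNMB (ENSMMUG00000012648) encodes a membrane glycoprotein related to PMEL that sits in melanosomes and lysosomes and is also made by macrophages and other non-pigmented cells. It had 1008, 807, 1012 and 1001 CPM in libraries 1 to 4, a mean of 957 ± 100.3 CPM (SD, n = 4), and ranked 140 among the 21314 rows by mean CPM. Library 2 was the low one, and without it the mean was 1007 ± 5.63 CPM (n = 3, same scaling). Of the macrophage markers, 2 of 8 matched genes reached 1 CPM in every library, against 64.2% of all rows with a symbol. They were CD68 at 6.77 ± 1.62 CPM and LYZ at 7.72 ± 1.79 CPM. The summed level of all 8 matched macrophage markers was between 15.01 and 16.3 CPM in the 4 libraries. Of the other matched markers, ITGAM and TYROBP had no count, CSF1R had a mean of 0.0227 CPM and PTPRC, the common leukocyte antigen, 0.171 CPM. CD14 had a mean of 0.515 CPM and CD163 0.346 CPM, with 1.11 CPM in library 2. Which cells gave the GPNMB counts was not tested.

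RAB27A (ENSMMUG00000020694) had 43.2, 25.9, 42.4 and 41.8 CPM, a mean of 38.3 ± 8.3 CPM (SD, n = 4). Library 2 was again the low one, and the other 3 lay within 1.34 CPM of each other. Besides moving melanosomes, RAB27A takes part in the release of secretory granules in cytotoxic lymphocytes and other cells. The lymphocyte genes GZMB and NKG7 had no count, and UNC13D had a mean of 0.31 CPM. RAB27A and PMEL could not be ordered. RAB27A minus PMEL was 0.06 ± 0.58 in log2(CPM + 0.5) (n = 4), above 0 in libraries 1, 3 and 4 and -0.81 in library 2.

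MITF (ENSMMUG00000002100), the regulator of pigment cell genes, had 47, 10, 93 and 141 counts, or 2.14, 0.617, 4.18 and 6.38 CPM. The mean was 3.33 ± 2.5 CPM (SD, n = 4), and 4.23 ± 2.12 CPM without library 2 (n = 3, same scaling). No library overlapped another within its counting error. The exact 95% Poisson limits were 1.57 to 2.84 CPM in library 1, 0.296 to 1.13 CPM in library 2, 3.37 to 5.12 CPM in library 3 and 5.37 to 7.52 CPM in library 4. Among the 4 members that averaged 1 CPM or more, MITF differed most between libraries 1, 3 and 4, with a coefficient of variation of 50.1%. The median was 14.3% over the 2458 genes within 2-fold of its level, and 96.0% of those genes varied less. GPNMB was at the other end, with a coefficient of variation of 0.559% in the same libraries, where 1.35% of 223 genes of like level varied less. RAB27A and PMEL had 1.58% and 5.21%, against medians of 7.04% and 7.24% for genes of like level.

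**Figure D2:**
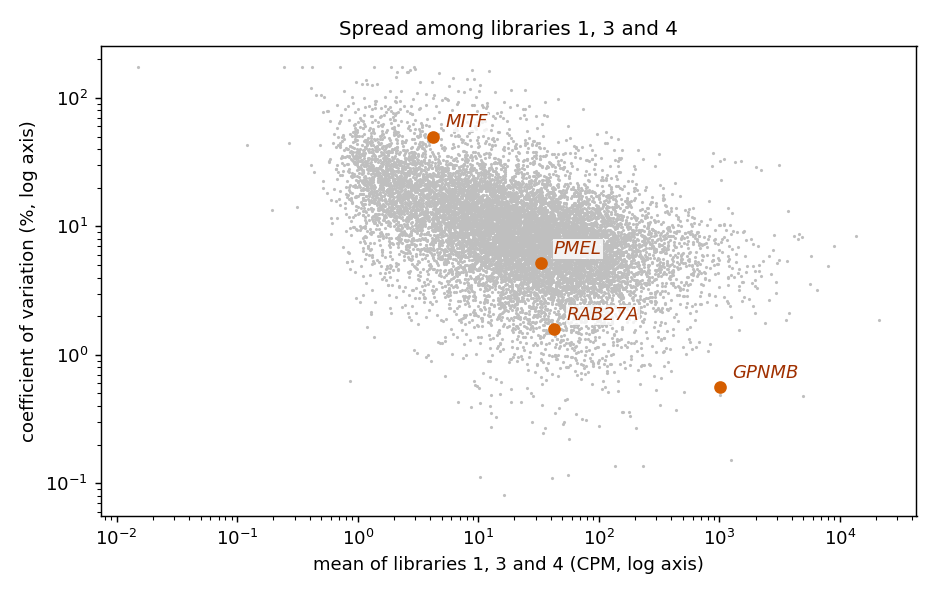
Each grey point is a gene that averaged at least 1 CPM over 4 libraries, placed by its mean CPM in libraries 1, 3 and 4 and by its coefficient of variation in them, both on log axes. Among the orange members MITF, at 50.1%, lies high in the cloud and GPNMB, at 0.559%, near its lower edge.

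The pigment enzymes were near or at 0. DCT (ENSMMUG00000021817), which converts dopachrome on the way to brown-black melanin, had 4, 0, 4 and 1 counts. Its pooled level was 0.109 CPM, with exact 95% Poisson limits of 0.0498 to 0.207 CPM. TYR (ENSMMUG00000011115), the enzyme that starts melanin synthesis, had no count in any library. A count of 0 was taken to allow up to 3 counts, a one-sided limit, which is 0.0363 CPM over the 4 libraries together and between 0.135 and 0.185 CPM in a single one. These limits cover counting error only and set no bound on reads assigned elsewhere.

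PMEL and these enzymes were set side by side in counts. PMEL had 2958 counts over the 4 libraries and DCT 9, a ratio of 329 with an exact 95% interval of 173 to 719 for counting error. Against the floor of 3 counts over the 4 libraries, PMEL was at least 986-fold higher than TYR, which leaves aside the counting error of PMEL itself. In log2(CPM + 0.5), PMEL lay above the median of the matched enzymes by 5.92, 6.53, 5.78 and 6.04 in libraries 1 to 4, a mean of 6.07 ± 0.33 (SD, n = 4). That difference depends on the pseudocount, since the enzymes sit at the floor, and it was 8.06 with a pseudocount of 0.1. The genes were chosen for this difference and it carries no test.

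The remaining members act in the melanosome membrane. OCA2 (ENSMMUG00000012027), a melanosomal transport protein needed for full pigmentation, had 3 counts in library 2 and none in the others. GPR143 (ENSMMUG00000006192), a receptor of melanosomes whose loss causes ocular albinism, had no count in any library, with the same limits as TYR. Thus 2 of 8 matched genes had no count at all, where 11.8% of all rows with a symbol had none, and nothing is read from that difference either.

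Markers of the pigment cell types were described from short lists, and nothing is read from a difference between the lists. Of the 5 matched melanocyte markers outside MITF, PMEL and GPNMB, SLC24A5 reached 1 CPM in every library, PAX3 (0.155 ± 0.0945 CPM) and DCT were below it, and TYR and SLC45A2 had no count. SOX10, KIT and MC1R matched no row. The summed level of the list was between 10.4 and 14.2 CPM. Retinal pigment epithelium markers had 5 of 8 matched genes at 1 CPM in every library. That is near the share among all rows with a symbol, 64.2%. The highest were SERPINF1 at 470.03 ± 290.4 CPM and RDH5 at 92.1 ± 79.5 CPM. Both were highest in library 2, at 904 and 211 CPM, against 304 to 365 CPM and 45.3 to 58.3 CPM elsewhere. On the RefSeq assembly RDH5 overlaps BLOC1S1, whose symbol has no row, and whether the RDH5 row holds its reads was not tested. BEST1, a chloride channel of that epithelium, had 15.1, 1.48, 29.8 and 15.2 CPM, and MERTK, a receptor for the uptake of photoreceptor debris, measured 4.84 ± 1.28 CPM. OTX2, a transcription factor of that epithelium, and RGR had no count, and the retinal-binding protein gene RLBP1 averaged 0.0267 CPM. RPE65, the visual cycle isomerase that defines this epithelium, measured 1.45 ± 0.396 CPM. Fibroblast markers all reached 1 CPM in every library, 9 of 9, with COL1A2 at 8424 ± 1044 CPM. Endothelial markers had 1 of 7 matched genes at 1 CPM in every library, PECAM1 at 2.49 ± 0.636 CPM, and 2 of 7 without library 2. The share over all rows with a symbol was 64.2% for these lists too.

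The wider melanosome pathway was described with 86 further genes, of which 68 had a row. At least 1 CPM in every library was reached by 48 of them (70.6%, against 64.2% of all rows with a symbol), and by 51 without library 2. The median level of the 68 genes was 19.7 CPM and that of all rows with a symbol 10.5 CPM. The transporters of the melanosome membrane had 5 of 6 genes at that level. CLCN7, a chloride-proton exchanger of lysosomes, measured 35.7 ± 4.76 CPM, ATP7A, which supplies copper to tyrosinase, 20.9 ± 11.2 CPM, with 5.00 CPM in library 2, and the cation exchanger SLC24A5 11.7 ± 1.89 CPM. SLC24A5 overlaps MYEF2 on the RefSeq assembly, and MYEF2 had its own row at 31.9 CPM. SLC45A2, a transporter of the melanosomes of pigment cells, had no count.

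**Figure D3:**
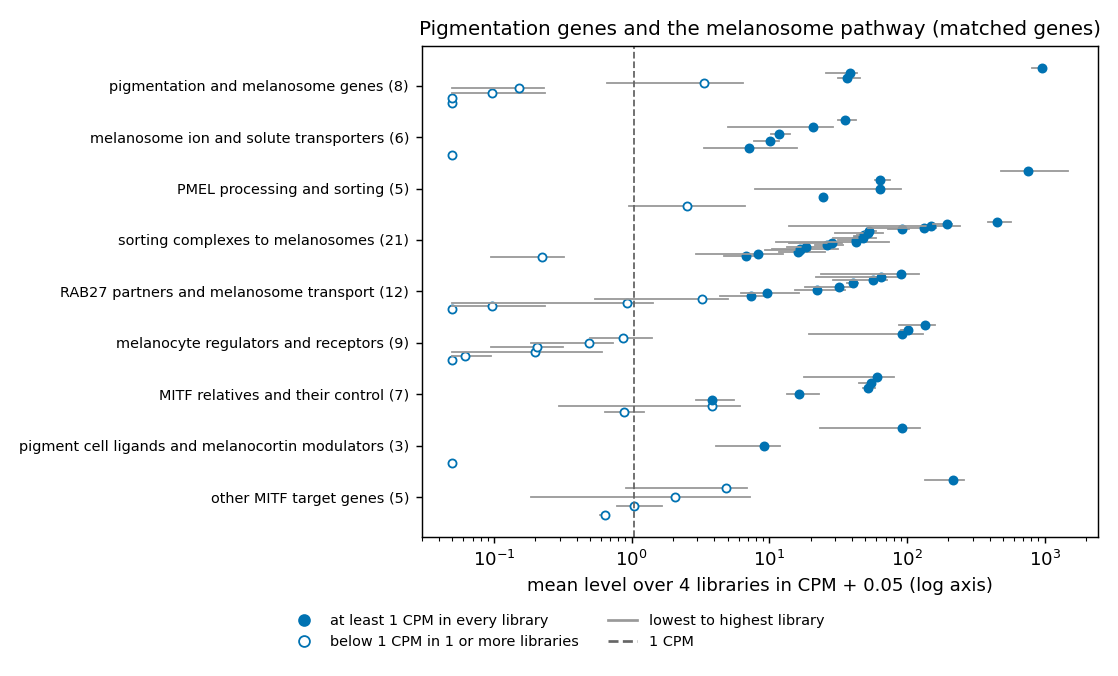
Points give the mean level of each matched gene over 4 libraries in CPM + 0.05 on a log axis, and grey lines run from its lowest to its highest library. Filled points reached 1 CPM in every library, as 20 of 21 genes of the sorting complexes did and 3 of 8 pigmentation and melanosome genes.

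Of the factors that process PMEL, 4 of 5 were at 1 CPM in every library, against 64.2% of all rows with a symbol. CD63, a tetraspanin that sorts PMEL inside endosomes, measured 479, 1472, 504 and 554 CPM in libraries 1 to 4 and was highest in library 2. FURIN, a protease of the class that cuts PMEL during its maturation, measured 63.5 ± 7.74 CPM. BACE2, which releases the fibril-forming fragment, measured 24.6 ± 0.911 CPM (SD, n = 4), and with plain CPM 18.8 in library 2 against 25.9 to 27.9 elsewhere. ADAM17, a sheddase, had 7.83 CPM in library 2, against 74.4 to 90.3 CPM elsewhere. APOE, chosen after its values were seen, was the exception, with 0.91 CPM in library 1 and 6.6 CPM in library 2.

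Complexes that deliver cargo to melanosomes and other lysosome-related organelles had the highest share of the pathway lists, with 20 of 21 matched genes at 1 CPM in every library, against 64.2% of all rows with a symbol. The adaptor AP-3 had 5 of 5 subunits, BLOC-1 4 of 4 matched of 8 listed, BLOC-2 3 of 3 and BLOC-3 2 of 2. Defects in several of these subunits cause Hermansky-Pudlak syndrome, in which pigmentation and platelet granules are affected together. AP3D1 measured 194 ± 27.4 CPM, and AP3B1 150.4 ± 102.5 CPM with 13.9 CPM in library 2. BLOC1S5 was the highest at 450 ± 82.9 CPM. The gene below 1 CPM was RAB38, a Rab GTPase of pigment cells, at 0.175 ± 0.105 CPM, and its relative RAB32 matched no row.

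Partners of RAB27A had 8 of 12 matched genes at 1 CPM in every library and 9 without library 2. The first count is near the share over all rows with a symbol, 64.2%. MYO5A, the myosin that carries melanosomes along actin, had 79.3, 21.8, 85.8 and 73.7 CPM. MLPH, or melanophilin, which links RAB27A to that myosin, measured 7.29 ± 2.42 CPM. SYTL2, an effector that holds melanosomes at the cell membrane, measured 56.6 ± 19.8 CPM (28.99 CPM in library 2), and CHM, the escort protein for attaching lipid to Rab proteins and the gene of choroideremia, 89.9 ± 44.9 CPM (23.9 CPM in library 2). MYO5A, SYTL2, CHM and RAB27A itself were each lowest in library 2, while MLPH was highest there, at 10.05 CPM. Of the 9 matched partners that averaged 1 CPM or more, library 2 was lowest for 5 and highest for 3. Over all genes of that level the shares were 48.0% and 43.8%. MYRIP and MYO7A, the linker and the motor used with RAB27A in the retinal pigment epithelium, had no count in any library and 3 counts, all in library 2, in that order. RAB27B, the close relative of RAB27A, had 0.91, 0, 1.39 and 1.22 CPM.

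Upstream regulators had 3 of 9 matched genes at 1 CPM in every library, against 64.2% of all rows with a symbol. The neural crest and mesenchymal factors TFAP2A (135 ± 32.9 CPM), SNAI2 (102 ± 7.56 CPM) and ZEB2 (91.8 ± 50.2 CPM) were those 3, ZEB2 with 19.3 CPM in library 2. FOXD3, an early neural crest factor, had no count, and the endothelin receptor gene EDNRB had 1. Among ligands and melanocortin modulators only 3 of 7 genes matched a row. ATRN, or attractin, measured 92.7 ± 47.2 CPM, with 23.4 CPM in library 2, and MGRN1 9.15 ± 3.47 CPM, while EDN3, the ligand of EDNRB, had no count.

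MITF belongs to a family with TFEB, TFE3 and TFEC, factors of lysosome biogenesis that bind the same DNA element. TFE3 had 53.05, 58.5, 50.6 and 47.9 CPM, a mean of 52.5 ± 4.49 CPM (SD, n = 4). TFEB had 2.87, 5.49, 3.59 and 3.3 CPM and TFEC 0.773, 1.17, 0.764 and 0.588 CPM. Both were highest in library 2, as were 43.8% of all genes that averaged 1 CPM or more. For TFEC this rests on few counts, 17, 19, 17 and 13 in libraries 1 to 4. Among TFEB, TFE3, TFEC and their control genes, 5 of 7 matched genes reached 1 CPM in every library, against 64.2% of all rows with a symbol. Of the genes that hold these factors at the lysosome, RRAGC measured 60.9 ± 29 CPM, with 17.95 CPM in library 2. FLCN, or folliculin, measured 55.1 ± 6.67 CPM. FNIP2, of the same list, had 5.00, 0.247, 6.07 and 3.89 CPM in libraries 1 to 4, and FNIP1 matched no row. Of the other MITF targets in pigment cells or osteoclasts, 1 of 5 matched genes reached 1 CPM in every library, against 64.2% of all rows with a symbol. It was the growth factor receptor MET, at 215 ± 58.5 CPM. PPARGC1A, a regulator of mitochondrial genes, was the second without library 2, with 6.82, 0.864, 5.44 and 5.97 CPM. ACP5, an acid phosphatase of osteoclasts and macrophages, had 7, 8, 3 and 159 counts, so that its mean of 2.03 CPM came from library 4. With 4 libraries no relation between the levels of genes could be tested.

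**Figure D4:**
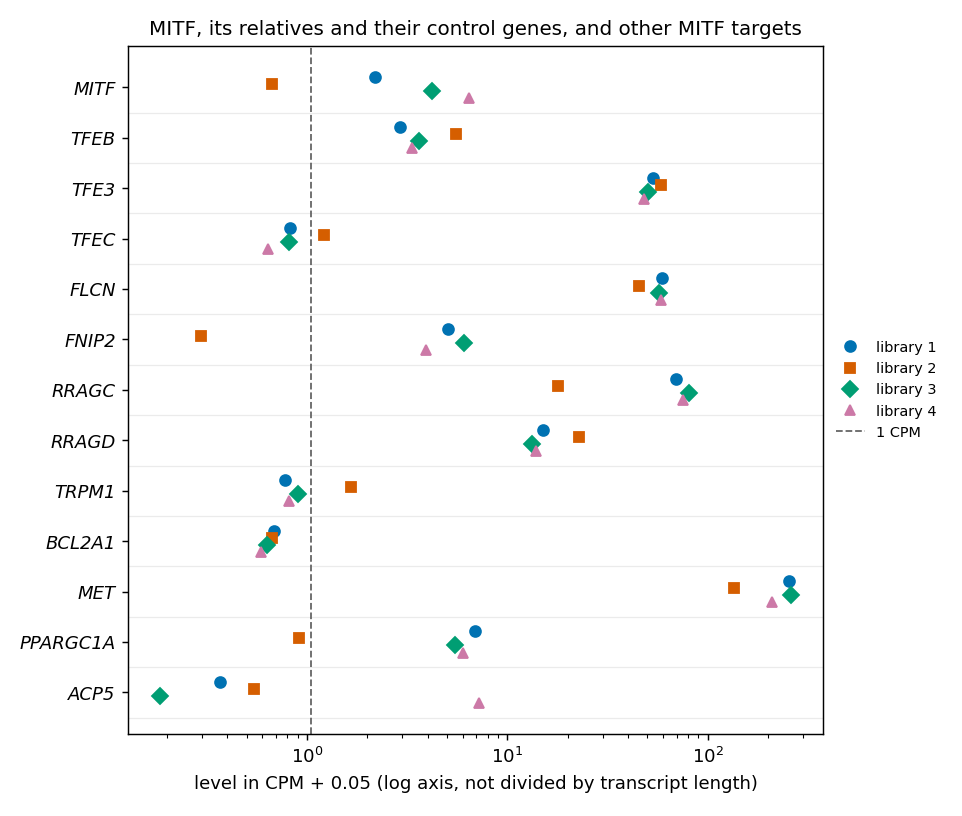
Levels of MITF, its relatives and their control genes, and 5 other MITF targets are shown in CPM + 0.05 on a log axis, 1 point per library, with a dashed line at 1 CPM. TFE3 lies near 50 CPM in every library, while MITF spreads between 0.617 and 6.38 CPM and ACP5 lies right of the line in library 4 alone.

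Library 2 was compared with the mean of the other 3 for the 4 members that averaged 1 CPM or more. MITF, RAB27A and GPNMB were lowest in library 2, with log2 ratios of -2.08, -0.70 and -0.32 on the log2(CPM + 0.5) scale, and PMEL was highest there, with 0.45. Over all 12453 genes of that level, library 2 was lowest for 48.0% and highest for 43.8%, and the median log2 ratio was -0.08. By Dixon's gap test library 2 lay apart for GPNMB and RAB27A, 2 of 4 members, where a library lay apart for 33.8% of all such genes. In the pathway lists, 53 genes had that level, and library 2 was lowest for 32 and highest for 19 of them. Their median log2 ratio was -0.54. Plain CPM moved the median log2 ratio of all genes to -0.50, with library 2 lowest for 59.7% and highest for 31.6%. On that scale MITF stood at -2.36, RAB27A at -1.14, GPNMB at -0.76 and PMEL at 0.01, and library 2 was lowest for 38 and highest for 9 of the 53 pathway genes. Relative to the median of all genes, the ratios of MITF, RAB27A and GPNMB were thus lower and that of PMEL higher with either scaling. A change of scaling multiplies all genes of a library by the same factor. It could therefore hardly alter this order, and the agreement between scalings adds no support.

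**Figure D5:**
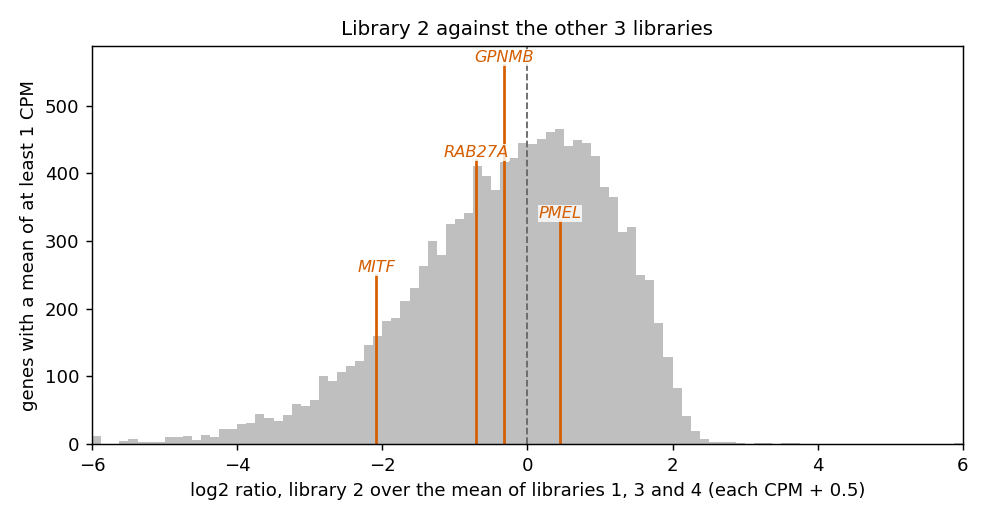
The histogram counts the 12453 genes that averaged 1 CPM or more by the log2 ratio of library 2 to the mean of libraries 1, 3 and 4, each CPM + 0.5, with values beyond the axis placed in the end bins. Orange lines mark MITF at -2.08, RAB27A at -0.70, GPNMB at -0.32 and PMEL at 0.45.

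The named genes whose profile over the 4 libraries lay nearest to that of PMEL were CAB39L, GATB and BGLAP. Likeness was the distance between values of log2(CPM + 0.5) centred on each gene's mean, among 10195 named genes outside the list that averaged 1 CPM or more. The distances were 0.029, 0.029 and 0.03, and 83 genes lay within 0.1. BGLAP, the osteocalcin gene, had 55.6, 71.99, 50.9 and 54.7 CPM. With 4 libraries, of which 1 stands apart, many genes share this profile.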

How the data were processed

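Total RNA from 4 RF/6A libraries was sequenced on a BGISEQ-500, per the labels' protocols. The authors deposited estimated counts per Ensembl gene, already whole numbers. The submitters' processing notes list Salmon and DESeq2, with neither role nor version. Genome build, annotation and strandedness were not given in the sources used here. Of 21314 rows, 14654 matched a current symbol, as did 115 of the 143 listed genes. Counts were scaled by TMM in edgeR 4.0.16 (R 4.3.3). A library stood apart when its gap over the range of the 4 values exceeded Dixon's 0.829. Neighbouring genes come from RefSeq names on T2T-MMU8v2.0, which may not be the authors' build, and no coordinates are used. Scaling and Dixon's test were tested on simulated data. For scaling, the simulated library 2 differed from the others in far fewer genes than the real one did. That simulation therefore does not cover a library as far apart as library 2. The members and lists were chosen with earlier results of these data known, and 1 listed gene is not reported here. All members were named, with the 3 highest genes and those without counts of each pathway list, fixed partners, and the 2 highest and those without counts of each cell type list. APOE, RAB38, EDNRB, MYO7A, RPE65, RLBP1, BEST1, MERTK, CSF1R, PTPRC, CD14, CD163, FNIP2, DGKA, RAB5B and MYEF2 were chosen after their values were seen. Alternatives were plain CPM, DESeq2 1.42.0 size factors, filterByExpr (minimum count 10), other pseudocounts and thresholds, and leaving out each library. The counts per library and their precision are given with the results above.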

Additional observations from a re-analysis of the deposited data

Results flagged for a closer look

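Dixon's gap test was run on 42 values. They were 3 summary values and the level of each gene named by the stated rule that averaged 1 CPM or more. Genes chosen after their values were seen, and those nearest to PMEL in profile, were left out. In 11 of the 42 values 1 library lay apart from the other 3. These are 26.2% of the values, against 33.8% of all 12453 genes of that level, and about 1 value in 20 is flagged by chance. For 10 of the 11 it was library 2, which was the low one 5 times and the high one 5 times, so these are not independent. Among the members it was low for GPNMB (807 CPM) and RAB27A (25.9 CPM) and for the summed level of the 8 matched genes (879 CPM). Among the pathway genes it was low for AP3D1 (153 CPM) and FLCN (45.2 CPM) and high for CD63 (1472 CPM). Among the cell type markers it was high for SERPINF1 (904 CPM), RDH5 (211 CPM), ERBB3 (3128 CPM) and COL1A1 (16445 CPM). ERBB3 lies between RPS26 and PA2G4 on the RefSeq assembly, and neither symbol has a row. Library 4 was high for ACP5 (7.19 CPM).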

How the results depend on the processing

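With plain CPM and with DESeq2 size factors, the counts of members (3) and of pathway genes (48) at 1 CPM in every library did not change. The log2 difference between PMEL and the pigment enzymes was 6.06 and 6.07 in these settings. It moved to 8.06 with a pseudocount of 0.1 and to 5.15 with 1, because both matched enzymes sit near 0. Leaving out each library in turn gave between 3 and 4 members, between 48 and 51 pathway genes, a difference of 6.01 to 6.13, and a summed level of the members of 989.6 to 1175 CPM, the highest without library 2, where scaling the other 3 again also raises every CPM. MITF ranged from 2.26 CPM without library 4 to 4.57 CPM without library 2, and ACP5 measured 0.308 CPM without library 4. Filtered by filterByExpr, no enzyme was kept, so that difference could not be computed. The alternative per coding length was not run because no lengths were used here, and Dixon's test was not run on 3 libraries. No paired analysis was possible because the 4 libraries form 1 group. Depth limits the genes near 0: up to 3 counts cannot be told from none.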
